A study of Mus musculus with 8 samples.

Results

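The genes described here encode the initiation and elongation factors of cytosolic translation. They were taken as the genes of the deposited table whose mouse symbol starts with Eif or Eef followed by a digit, leaving out the eIF2 kinases (symbols starting with Eif2ak) and pseudogenes (symbols with -ps). The rule found 60 genes among the 20172 identifiers of the table, and all 60 are protein-coding. The annotation holds 65 genes that meet the rule, and *Eef1a2*, *Eef1akmt4*, *Eif2c5*, *Eif2s3y* and *Eif4e1b* were not analysed here. Of the 60 genes, 59 had a mean of at least 10 normalized counts over the libraries and were tested. The remaining gene was *Eif4ebp3*, listed at 0 in 5 libraries and at most 25.0 in the others.

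RNA was sequenced from regulatory T cells (Tregs) of the spleen of female mice of the genotype Foxp3 YFP-cre, which carry Cre and a yellow fluorescent protein under control of the *Foxp3* gene. Tregs were sorted as fluorescent CD4 T cells that stained for TNFR2, a receptor for tumor necrosis factor, or did not. There were 4 libraries of TNFR2+ Tregs and 4 of TNFR2- Tregs, both groups carry the same reporter, and no treatment is labelled. The age of the mice is not in the labels, and the labels tie no library to a mouse. A caption of the study gives the number of libraries per group beside the mice, which may mean a mouse for each library, but no source states it, so p-values measure the spread between these libraries, which may be technical.

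The normalized counts of a library summed to between 9576920 and 11492762. *Tnfrsf1b*, which encodes TNFR2, ran from 1839.8 to 3148 normalized counts in the TNFR2+ libraries and from 1177 to 1563 in the others. All 6 Treg markers were present in every library, but their levels differed between the groups. *Ikzf2*, *Ctla4* and *Cd3e* were higher in TNFR2+ libraries (log2 fold changes of 0.95, 0.89 and 0.51, limma adjusted p under 0.05). *Cd4* had 0.28, *Foxp3* -0.23 and *Il2ra* -0.34, and these did not pass, though the groups did not overlap for *Il2ra*. Among the defining markers of other cells, *Cd14*, *Lyz2*, *Pf4* and *Ppbp* were not analysed here. B cell markers (3 of 4 used) summed to 72.9 to 113 in TNFR2+ and 21.9 to 132 in TNFR2- libraries, myeloid markers (2 of 4) to 2.92 to 8.80 and 10.6 to 30.4, CD8 and cytotoxic markers (4 of 4) to 101 to 180 and 57.6 to 94.5, and the platelet marker *Itga2b* (1 of 3) to 12.2 to 221 and 31.2 to 178. The myeloid sums did not overlap between the groups, nor did the CD8 and cytotoxic sums. Of the latter, *Nkg7* averaged 64.3 in TNFR2+ and 7.83 in TNFR2- libraries (log2 fold change 3.19, limma adjusted p = 0.00927). *Cd8b1* averaged 46.6 and 47.8, *Cd8a* 6.95 and 9.57, and *Gzmb* 13.5 and 4.82. Erythroid markers were not analysed here. Proliferation markers (5 of 5) summed to 3680.0 to 6926 in TNFR2+ libraries and 544 to 1454 in TNFR2- libraries, with no overlap, and their part in the results was not tested. In a principal component analysis TNFR2- replicate 3 stood apart on the second component, at 91.32 against -39.08 to 17.96 for the other libraries.

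Translation begins when eIF2 carries the initiator tRNA to the small ribosomal subunit, which is held by eIF3 together with eIF1 and eIF1A. The cap-binding complex eIF4F brings this assembly to the 5′ end of an mRNA, and eIF5 and eIF5B act when the start codon is found and the subunits join. During elongation eEF1A delivers aminoacyl-tRNAs and eEF2 moves the ribosome along the mRNA. Cells adjust the process by phosphorylating eIF2, by sequestering the cap-binding protein eIF4E, and by phosphorylating eEF2, and T cells are known to raise protein synthesis when they are activated.

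Several of these genes share a promoter element, the palindrome CACGTG, which is an E-box bound by factors such as MYC. RefSeq promoters (GRCm38.p6, 250 bases before to 50 after a start) were found for 45 of the 60 genes, 59 promoters in all. CACGTG, which reads the same on both strands, was present in promoters of 12 of the 45 genes (26.7%), against 11.8% of the 9543 tested genes with a promoter. By promoter the shares were 23.7% for the factors, 9.96% for tested genes and 7.15% for all 32851 promoters. A match describes the letters in the window and was not tested as a binding site. The windows of 30 bases around it are shown for the 3 genes among those past the test that had a match, and for *Eef2*, the substrate of the kinase encoded by *Eef2k*, each 5′ to 3′ on the strand of the gene with CACGTG in capitals.
*Eif4e*, chr3:138527028-138527057 (+): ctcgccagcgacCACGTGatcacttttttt
*Eif4e*, chr3:138527192-138527221 (+): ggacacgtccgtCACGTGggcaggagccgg
*Eif5a*, chr11:69920791-69920820 (-): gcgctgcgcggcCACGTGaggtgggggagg
*Eif5a*, chr11:69921443-69921472 (-): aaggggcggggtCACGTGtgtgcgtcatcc
*Eef2k*, chr7:120842788-120842817 (+): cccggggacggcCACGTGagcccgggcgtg
*Eef2*, chr10:81176576-81176605 (+): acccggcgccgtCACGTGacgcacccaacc
In *Eif4e* the matches lay 228 and 64 bases before a downstream start, inside an annotated *Eif4e* exon, and the promoter of its upstream start had none. The *Eef2k* match lay 31 bases and the *Eef2* match 43 bases before a start, in windows with no annotated exon. The first *Eif5a* window overlapped an *Eif5a* exon and the second no exon. The promoters of *Eif3c* and *Eif2b1* held no CACGTG. Matches were thus present in genes that were higher, lower and not past the test in TNFR2+ Tregs.

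The share of factors past the test was near that of all genes. Of the 59 tested, 3 were higher in TNFR2+ Tregs (*Eif4e*, *Eif3c* and *Eif5a*) and 2 were lower (*Eef2k* and *Eif2b1*) at an adjusted p under 0.05 (limma, Benjamini-Hochberg over 13990 genes). These are 8.47% of the factors, beside 7.91% of all genes tested, with 5.08% beside 4.52% for higher genes and 3.39% beside 3.39% for lower genes. The libraries of the groups did not overlap for 10 factors (16.9%, beside 15.4% of all genes), 6 higher (10.2%, beside 8.08%) and 4 lower (6.78%, beside 7.29%). At an unadjusted p under 0.05, 7 factors were higher (11.9%, beside 12.3% of all genes) and 5 lower (8.47%, beside 10.7%), so these shares too were near those of all genes, and counts at this threshold below are to be read against them. The median log2 fold change was -0.03 for the factors and -0.01 for all genes, and the median of its absolute value was 0.18 and 0.37. The factors took between 1.17% and 1.52% of the normalized counts of a library, and *Eef1a1* alone took between 26.1% and 33.4% of their sum. In bulk RNA, fewer cells that express a gene and less RNA per cell cannot be told apart.

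**Figure D1:**
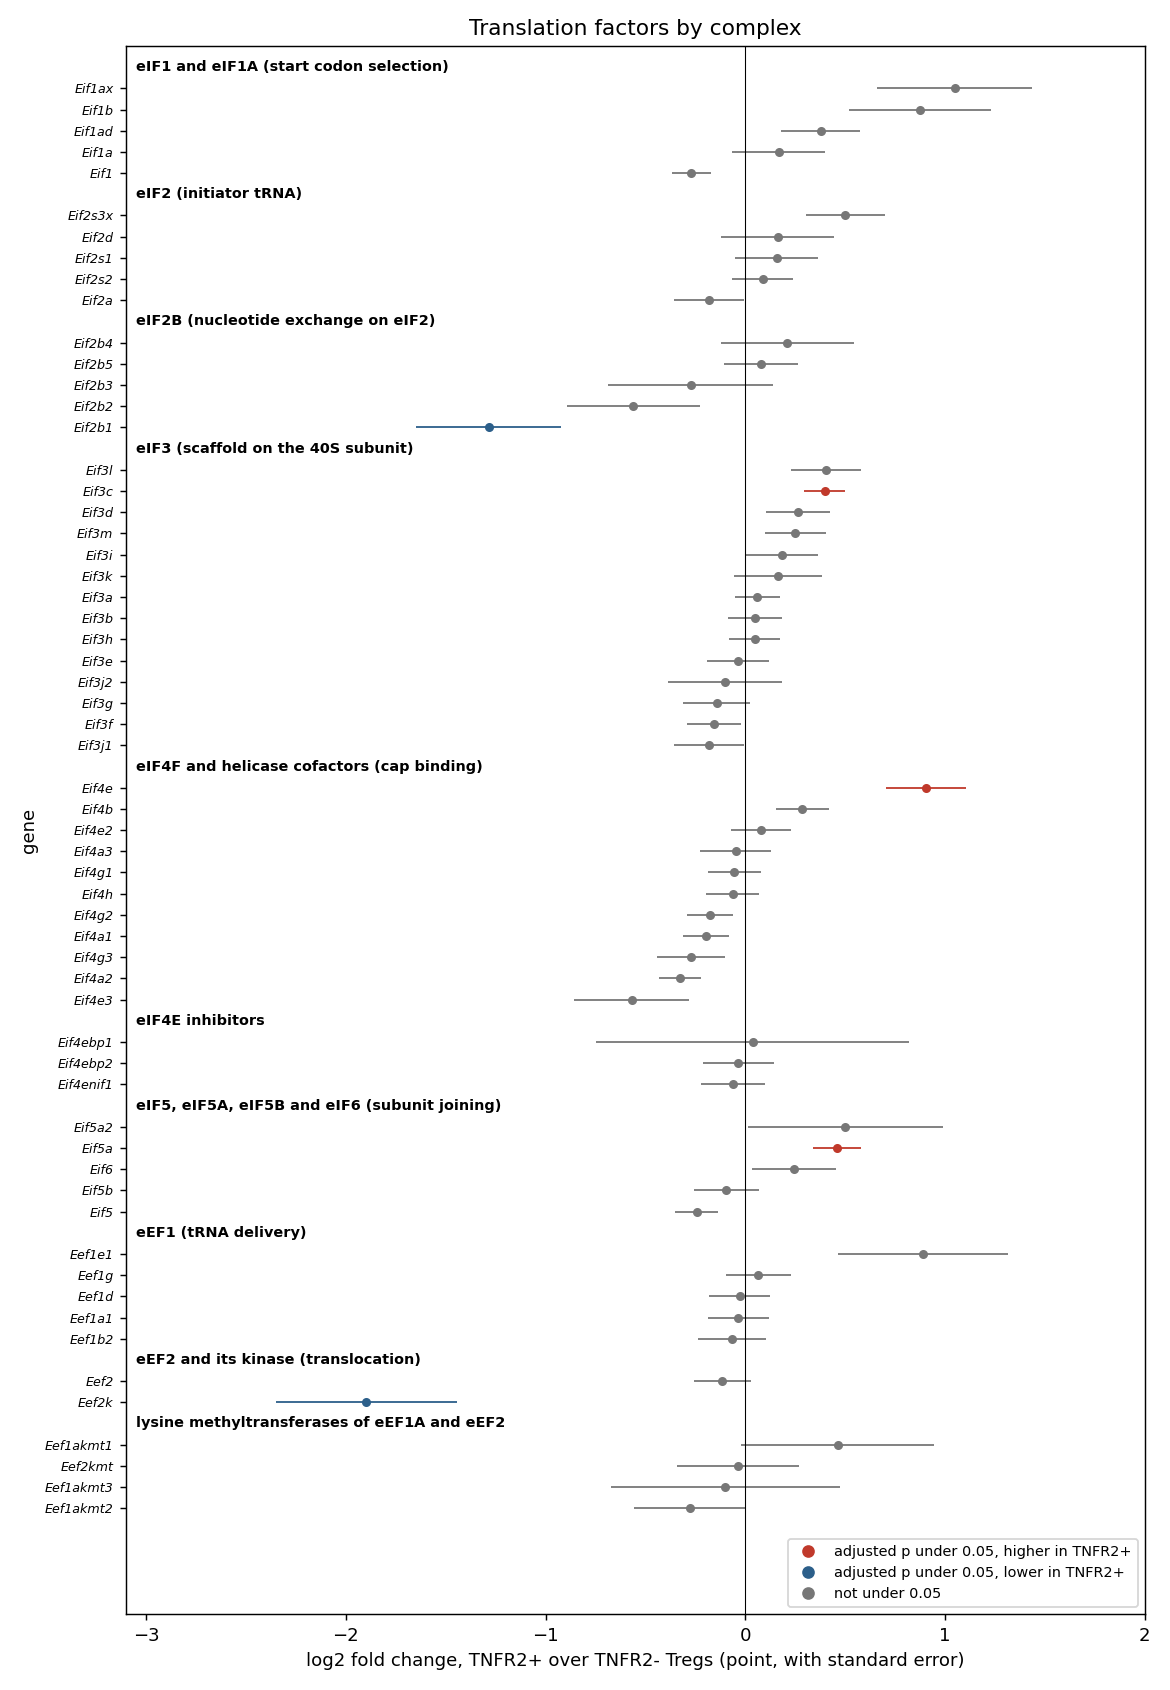
Log2 fold change of TNFR2+ over TNFR2- Tregs (x axis; point with standard error, 4 libraries per group) for each of the 59 tested factors, grouped by complex (y axis), with genes past the adjusted p of 0.05 in red (higher) or blue (lower). Most points lie close to 0, and the 5 coloured genes belong to 5 different sets of this grouping.

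These calls were sensitive to how the variances were estimated and to single libraries. Without an intensity trend in the moderated variances 0 factors passed (at an unadjusted p under 0.05 there were 5 higher and 2 lower, against 7 and 5 with the trend), while 465 of all genes still did. With a single library left out, *Eif4e* passed in 7 of 8 fits, *Eef2k* in 5 of 8, and *Eif3c*, *Eif5a* and *Eif2b1* in 1 of 8 each.

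Among the genes grouped as eIF4F and helicase cofactors, *Eif4e* was higher in TNFR2+ Tregs, and it was the only one that passed the test. The gene (GRCm38 chromosome 3 from 138526179 to 138559696) encodes the protein that binds the mRNA cap. The 4 TNFR2+ libraries had 456, 653, 434 and 547 normalized counts of *Eif4e*, and the TNFR2- libraries 215, 289, 284 and 323. No TNFR2- library reached the TNFR2+ range, with means of 522 ± 99.9 and 278 ± 45.4 (SD, n = 4). The difference on the log2 scale was 0.90 ± 0.20 (SE; limma, adjusted p = 0.0145), and the exact two-sided permutation test gave p = 0.0286, the smallest that 4 libraries against 4 allow. Every gene whose groups do not overlap gets this value, and 15.4% of all genes have no overlap. Here and below it thus restates the lack of overlap and adds no separate result. Leaving out TNFR2+ replicate 2 gave 0.79 (adjusted p = 0.0608), and leaving out the intensity trend gave an adjusted p of 0.0567, in a range of 0.00543 to 0.0567 over the settings that kept all libraries.

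The other 10 genes of this set, which is wider than eIF4F itself and includes *Eif4a3* and *Eif4g2*, did not pass the test. *Eif4e2*, a related cap-binding protein, had a log2 fold change of 0.08 (-0.002 when the libraries were centred on their medians), and *Eif4e3*, a further relative, had -0.57 (adjusted p = 0.260). *Eif4e3* overlaps the protein-coding gene *Gm20696* on the same strand (156 and 289 normalized counts on average), so reads may be divided between them. The scaffold genes *Eif4g1* and *Eif4g3* had log2 fold changes of -0.05 and -0.27, and their relative *Eif4g2* had -0.18. Those of *Eif4g1* and *Eif4g2* became 0.06 and 0.02 under quantile normalization. The helicase gene *Eif4a2* had 4705, 4372, 4190 and 3775 normalized counts in TNFR2+ libraries and 5046, 5689, 4974 and 5648 in TNFR2- libraries. These ranges did not overlap, with a log2 fold change of -0.33 and an adjusted p of 0.0779. Centring the libraries on their medians brought *Eif4a2* to -0.41 (adjusted p = 0.0386). Its introns hold small nucleolar RNAs, of which *Snora81* averaged 311 and 612 normalized counts. *Eif4b*, a helicase cofactor, had 0.29 (adjusted p = 0.225).

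**Figure D2:**
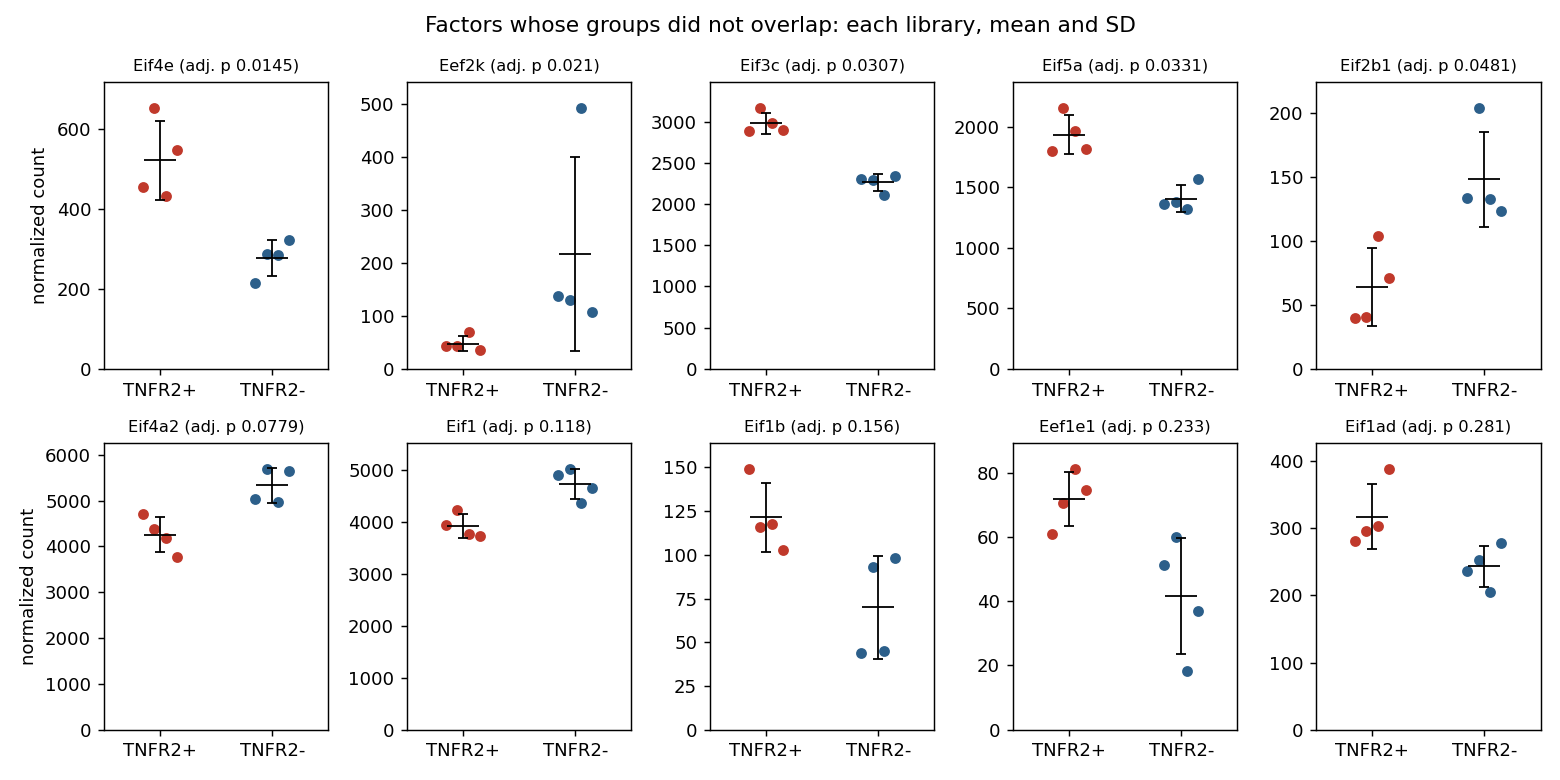
Normalized counts (y axis, from 0) of the 10 factors whose groups did not overlap, with a point for each of the 4 TNFR2+ (red) and 4 TNFR2- (blue) libraries and a bar for the mean and SD. The panels run from the smallest adjusted p (*Eif4e*) to the largest (*Eif1ad*, 0.281), and TNFR2- replicate 3 lies far above the others for *Eef2k*.

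None of the genes for proteins that hold eIF4E in an inactive form passed the test, also at an unadjusted p under 0.05. *Eif4ebp2* was the more abundant of the tested binding proteins per length, with 71.6 ± 7.24 and 73.7 ± 10.8 normalized counts per kilobase in TNFR2+ and TNFR2- Tregs, against 18.3 ± 14.6 and 14.8 ± 7.91 for *Eif4ebp1*. Its log2 fold change was -0.03 (0.10 with equal library sums), that of *Eif4ebp1* was 0.04 with a standard error of 0.79 (-0.05 with median centring), and that of the eIF4E transporter gene *Eif4enif1* was -0.06 (0.07 with equal library sums). *Eif4ebp1* varied from 5.02 to 74.6 within TNFR2+ libraries. The normalized counts of the binding-protein genes together lay between 402 and 514 in TNFR2+ libraries and between 386 and 531 in TNFR2- libraries, so their ranges overlapped where those of *Eif4e* did not.

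Of the factors that supply the initiator tRNA, *Eif2b1* was lower in TNFR2+ Tregs and the genes of eIF2 itself did not pass the test. *Eif2b1* (chromosome 5 from 124570213 to 124579131) encodes the regulatory alpha subunit of eIF2B, the complex that reloads eIF2 with GTP. It had 39.998, 40.6, 104 and 71.4 normalized counts in TNFR2+ libraries and 133, 204, 133 and 123 in TNFR2- libraries. The ranges did not overlap, with a log2 fold change of -1.29 ± 0.37 (SE; limma, adjusted p = 0.0481; exact permutation p = 0.0286). This is the least stable of the 5 calls. Among the 8 fits that left out a library it passed only without TNFR2+ replicate 3 (adjusted p = 0.0293), the highest TNFR2+ library, and the other 7 fits gave adjusted p values of 0.0645 to 0.144 and log2 fold changes of -1.38 to -1.10.
The other eIF2B genes did not pass the test, with log2 fold changes of -0.56 for *Eif2b2*, -0.27 for *Eif2b3*, 0.21 for *Eif2b4* and 0.08 for *Eif2b5*, the catalytic subunit. *Eif2s1*, the alpha subunit of eIF2 whose phosphorylation slows initiation, had 508 ± 111 and 455 ± 84.8 normalized counts, which is 0.16 on the log2 scale (adjusted p = 0.705). *Eif2s2* had 0.09. *Eif2s3x*, the gamma subunit, had 999, 1375, 1021 and 952 normalized counts in TNFR2+ libraries and 606, 886, 602 and 1029 in TNFR2- libraries. TNFR2- replicate 4 lay within the TNFR2+ range, and the log2 fold change of 0.50 had an adjusted p of 0.147 (0.63 and 0.04996 with equal library sums). The lowest value of this group was *Eif2a*, a factor that is not an eIF2 subunit, at -0.18.

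Of the 5 genes grouped here with eIF1 and eIF1A, which act in start codon selection, 0 passed the test. At an unadjusted p under 0.05 there were 2 higher and 1 lower, beside 12.3% and 10.7% of all genes. The TNFR2+ and TNFR2- libraries did not overlap for 3 of the 5, *Eif1ad* among them, beside 15.4% of all genes. *Eif1* had 3950, 4240, 3779 and 3737 normalized counts in TNFR2+ libraries and 4909, 5022, 4362 and 4649 in TNFR2- libraries, all above the TNFR2+ ones. The log2 values differed by -0.27 ± 0.10 (SE; limma, adjusted p = 0.118). Its relative *Eif1b* had 149, 116, 118 and 103 against 43.8, 92.8, 44.9 and 98.2 normalized counts, or 0.88 on the log2 scale (adjusted p = 0.156). *Eif1ad*, grouped here only for its eIF1A-like domain, did not overlap either (281 to 388 against 205 to 278, log2 fold change 0.38, adjusted p = 0.281). *Eif1ax*, the X-linked form of eIF1A, ran from 230 to 607 in TNFR2+ and 96.3 to 366 in TNFR2- libraries. Its log2 fold change of 1.05 had an adjusted p of 0.122 and passed only without TNFR2- replicate 1 (1.38, adjusted p = 0.0450). *Eif1a* had 0.17, and -0.01 without TNFR2+ replicate 1. An annotated transcript of *Emd* is near-identical to *Eif1*, which held 94.2% of the sum of both, and the log2 ratio of means was -0.23 for the sum and -0.27 for *Eif1* alone.

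eIF3 is the largest initiation factor, a scaffold of many subunits on the small ribosomal subunit. Of its 14 genes 1 was higher in TNFR2+ Tregs and 0 were lower, beside 4.52% and 3.39% of all genes. At an unadjusted p under 0.05 there were 2 and 0, beside 12.3% and 10.7%. The gene past the adjusted threshold was *Eif3c* (chromosome 7 from 126546455 to 126566411), a core subunit. It had 2890, 3161, 2982 and 2894 normalized counts in TNFR2+ libraries and 2309, 2287, 2112 and 2342 in TNFR2- libraries. Its groups were narrow and well apart. On the log2 scale they differed by 0.40 ± 0.10 (SE; limma, adjusted p = 0.0307; exact permutation p = 0.0286). With a library left out, the adjusted p stayed under 0.05 only without TNFR2- replicate 4 (0.0386) and lay between 0.0517 and 0.103 in the other 7 fits, while the log2 fold change remained between 0.37 and 0.42. Median centring of the libraries gave 0.32 (adjusted p = 0.0943).
The other 13 genes of eIF3 lay between -0.18 (*Eif3j1*) and 0.41 (*Eif3l*, adjusted p = 0.183), and the median of the 14 was 0.06. *Eif3l* and *Eif3c* thus had like log2 fold changes, but *Eif3l* varied more between libraries and its groups overlapped. Per kilobase the subunit genes spanned a wide range. *Eif3a*, the main scaffold subunit, was highest with 1306 ± 123 and 1255 ± 147 normalized counts per kilobase, followed by *Eif3h* and *Eif3e* within the spread of the libraries. Those of *Eif3j1* and *Eif3j2*, which encode the loosely bound j subunit, were lowest, at 117 ± 22.1 and 97.4 ± 29.7 in TNFR2+ Tregs. *Eif3j1* and *Eif3j2* share near-identical sequence, so the division of reads between them is uncertain, and their summed counts averaged 866 and 966.

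**Figure D3:**
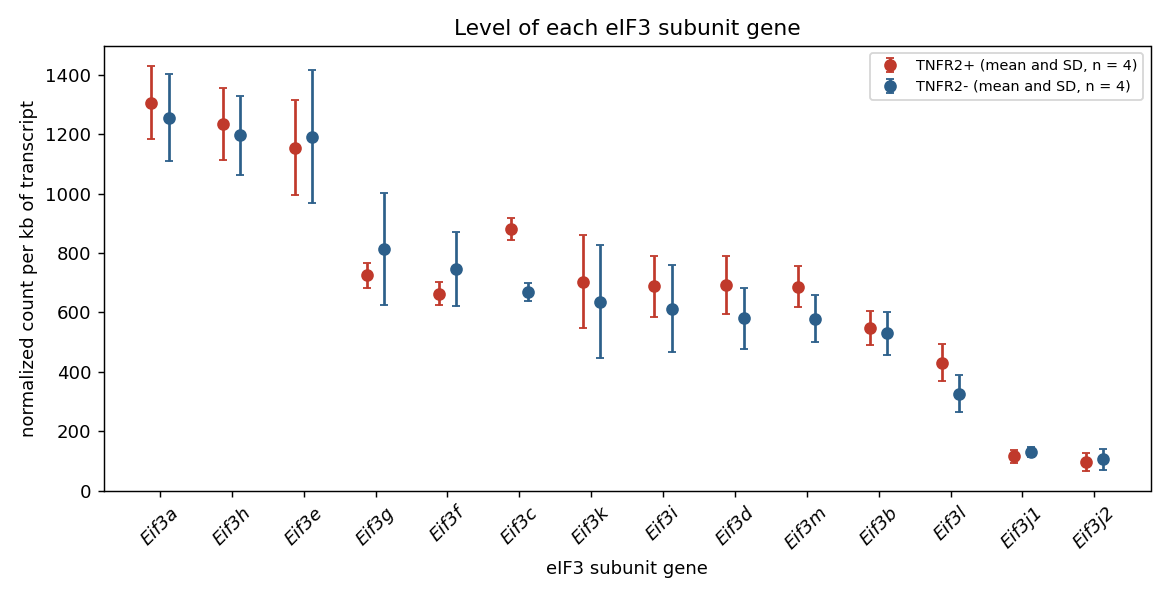
Normalized counts per kilobase of the longest protein-coding transcript (y axis, mean and SD of 4 libraries) for the 14 eIF3 subunit genes (x axis), with TNFR2+ Tregs in red and TNFR2- Tregs in blue. The bars of *Eif3c* (881 and 669) do not touch, whereas those of *Eif3a* (1306 and 1255) overlap.

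*Eif5a* was the third factor that was higher in TNFR2+ Tregs. It lies on chromosome 11 from 69916714 to 69921958 and encodes the protein that carries hypusine, a modified lysine, and helps ribosomes past difficult stretches and at termination. The TNFR2+ libraries had 1801, 2150.1, 1966 and 1814 normalized counts of *Eif5a*, and the TNFR2- libraries 1364, 1375, 1320.5 and 1565. The lowest TNFR2+ library was above the highest TNFR2- library, a log2 fold change of 0.46 ± 0.12 (SE; limma, adjusted p = 0.0331; exact permutation p = 0.0286). With a library left out, the call held only without TNFR2- replicate 4 (adjusted p = 0.0290), and the other fits that left out a library gave 0.0507 to 0.117, with log2 fold changes of 0.41 to 0.49. With median centring it was 0.38 (adjusted p = 0.0821).
The second eIF5A gene, *Eif5a2*, was at 12.2 ± 5.61 and 8.28 ± 3.13 normalized counts per kilobase, where *Eif5a* was at 1345 ± 113 and 979 ± 75.4. *Eif5a2* had a log2 fold change of 0.50 with a standard error of 0.49. *Eif5*, which promotes GTP hydrolysis by eIF2, had -0.24 (adjusted p = 0.199), *Eif5b*, the GTPase of subunit joining, had -0.09, and *Eif6*, which keeps the large subunit apart, had 0.24 (adjusted p = 0.535).

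Among the genes whose symbols start with Eef the only one past the test was that of the kinase of eEF2, which was lower in TNFR2+ Tregs. *Eef2k* (chromosome 7 from 120842831 to 120907450) encodes the kinase that phosphorylates and slows eEF2. It had 43.5, 43.8, 68.7 and 35.1 normalized counts in TNFR2+ libraries and 138, 130, 491 and 107 in TNFR2- libraries. All TNFR2- libraries were above all TNFR2+ libraries, and replicate 3, the library that stood apart from the rest, was well above the other TNFR2- ones. This is a log2 fold change of -1.90 ± 0.45 (SE; limma, adjusted p = 0.0210; exact permutation p = 0.0286). Without TNFR2- replicate 3 it was -1.41 and still passed (adjusted p = 0.0328). It did not pass without TNFR2+ replicate 1 (-1.87, adjusted p = 0.0562), replicate 2 (-1.87, 0.0578) or replicate 4 (-1.77, 0.0524).
*Eef2* itself had 17998 ± 1340 and 19855 ± 4888 normalized counts, or -0.11 on the log2 scale (adjusted p = 0.688), and its difference became 0.02 with equal library sums and 0.04 without TNFR2- replicate 4. *Eef1a1*, the main carrier of aminoacyl-tRNA, had the highest level per length of all the factors, 22535 ± 2434 and 23557 ± 6176 normalized counts per kilobase. Its log2 fold change was -0.04 (adjusted p = 0.926), and near-identical copies in the table left 99.9% of their sum in *Eef1a1*. The genes of the eEF1B exchange complex, *Eef1b2*, *Eef1d* and *Eef1g*, had -0.07 (0.06 with equal library sums), -0.03 and 0.07. *Eef1e1*, a small protein of the multi-synthetase complex, had 61.0, 70.5, 81.1 and 74.6 normalized counts in TNFR2+ libraries and 51.1, 60.1, 18.4 and 36.8 in TNFR2- libraries. The gap between these groups is narrow, 61.0 against 60.1, and the log2 fold change of 0.89 had an adjusted p of 0.233 (0.55 without TNFR2- replicate 3).
The genes of the 4 lysine methyltransferases of eEF1A and eEF2 had 0 members past the test, also at an unadjusted p under 0.05. They ranged from -0.28 (*Eef1akmt2*) to 0.46 (*Eef1akmt1*), and *Eef1akmt1* came to 0.01 without TNFR2- replicate 3.

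A group of 9 factors are classical TOP mRNAs, whose 5′ end is a cytosine followed by pyrimidines and whose translation is set by mTORC1 and the binding protein LARP1. They are *Eef1a1*, *Eef1b2*, *Eef1d*, *Eef1g*, *Eef2*, *Eif3e*, *Eif3f*, *Eif3h* and *Eif4b*. Their log2 fold changes lay between -0.16 and 0.29 with a median of -0.03, and 0 passed the test, also at an unadjusted p under 0.05. Their highest and lowest values fell in few libraries. In TNFR2- replicate 4, 7 of the 9 had their highest value, with a median log2 deviation of 0.37 from the mean of each gene, against 0.15 for the other 50 tested factors. The 14 eIF3 genes, 3 of which encode TOP mRNAs, had a median of 0.21 there. The lowest values of the 9 were in TNFR2- replicate 1 (4 genes), TNFR2- replicate 3 (3) and TNFR2+ replicate 1 (2), where the medians were -0.19, -0.24 and -0.20. The other 50 factors had medians of -0.03, -0.16 and -0.08 in these libraries, and 15 of the 50 were lowest in TNFR2- replicate 3. The difference between TOP and other factors was not tested. TNFR2- replicate 4 also had the highest share of the ribosomal RNA-like genes *Gm26917* and *Gm42418*, 11.4% of its sum against 6.01% to 10.1% in the others, and the part of this in the TOP genes was not tested. A start of cytosine and 4 pyrimidines at the RefSeq start was found in 1 of the 5 TOP genes with a promoter, *Eif3f*. Among all 45 factors with a promoter it was found in 2 (4.44%), near the 3.07% of the tested genes with a promoter. The other of the 2 was *Eif2s3x*, which is not among the TOP genes. A count of 1 in 5 is too small to be set against these shares.

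**Figure D4:**
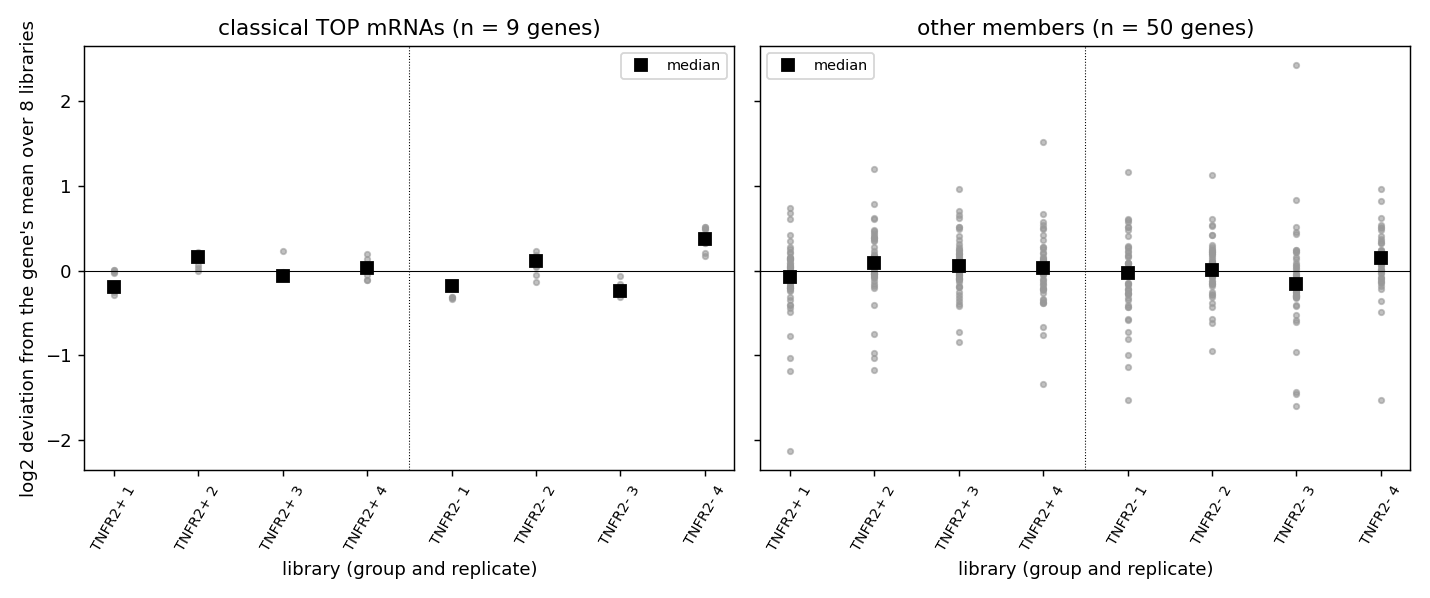
Log2 deviation of each gene from its mean over the 8 libraries (y axis) in each library (x axis, TNFR2+ left and TNFR2- right of the dotted line), for the 9 TOP mRNAs (left) and the other 50 tested factors (right), with the median as a square. The TOP genes have medians of 0.37 in TNFR2- replicate 4 and -0.24 in TNFR2- replicate 3, where the other factors have 0.15 and -0.16.

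The ratio of related genes within a library does not depend on a scaling factor of the library. On the log2 scale per kilobase, *Eif1* exceeded *Eif1b* by 4.66 ± 0.215 in TNFR2+ and 5.81 ± 0.604 in TNFR2- libraries (SD, n = 4), and no TNFR2+ library reached the TNFR2- range. This separation follows from the values above, where *Eif1* was lower and *Eif1b* higher in all TNFR2+ libraries, so it adds no separate result. *Eif4e* was below *Eif4e2* by a log2 ratio of -1.37 ± 0.372 and -2.19 ± 0.273, again with no overlap. Its ratio to *Eif4e3* was 0.63 ± 0.701 and -0.84 ± 0.537, with TNFR2+ replicate 3 at -0.26 and TNFR2- replicate 3 at -0.21, so these groups overlapped. In the remaining 7 pairs the libraries of the groups overlapped. *Eif4a1* and *Eif4a2* were near parity, at 0.01 ± 0.187 and -0.12 ± 0.139. These ratios are given as a description and were not tested.

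**Figure D5:**
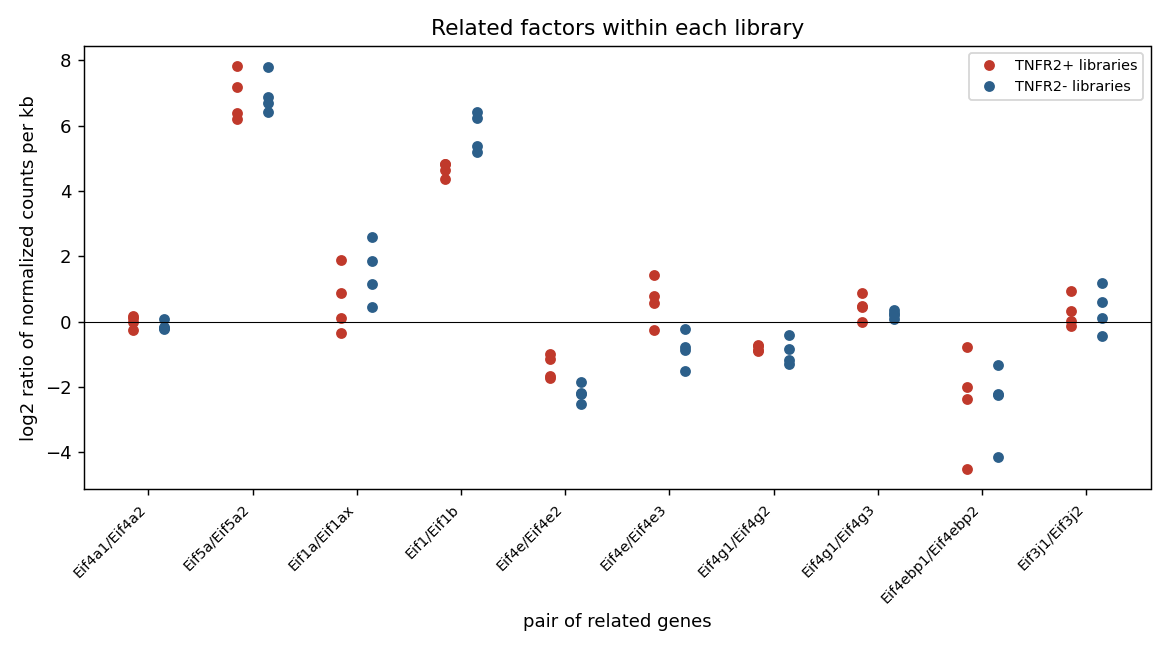
Log2 ratio of normalized counts per kilobase (y axis) for 10 pairs of related genes (x axis), with a point for each TNFR2+ (red) and TNFR2- (blue) library. The groups are separate for *Eif1*/*Eif1b* (means 4.66 and 5.81) and *Eif4e*/*Eif4e2* (means -1.37 and -2.19) and overlap in the other 8 pairs.

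Other genes that act on these factors were read from the same fit. Of 13 tested regulators of eIF2 phosphorylation and its response, 0 were higher and 2 were lower in TNFR2+ Tregs. The shares over all genes were 4.52% and 3.39%. At an unadjusted p under 0.05 there were 3 higher and 2 lower, beside 12.3% and 10.7% of all genes. The median log2 fold change of the list was 0.08. *Ppp1r15a*, the stress-induced subunit of the phosphatase that restores eIF2, had 10483, 11389.5, 12856 and 11564 normalized counts in TNFR2+ libraries and 17444, 20453, 17488 and 20234 in TNFR2- libraries. The groups were far apart (log2 fold change -0.71, standard error 0.10, adjusted p = 9.75e-04 from limma), and the call held in all 8 fits that left out a library. *Eif2ak3*, the eIF2 kinase PERK of the endoplasmic reticulum, had 704, 574, 870 and 678 against 1309, 1028, 1063 and 1089 normalized counts, a difference of -0.68 on the log2 scale (adjusted p = 0.0189). It did not pass without TNFR2+ replicate 2 (adjusted p = 0.0673) or without TNFR2- replicate 1 (0.0591), nor with equal library sums (-0.55, 0.0601) or without the intensity trend (0.0840). The kinase and the phosphatase subunit, which act in opposite directions on eIF2, were thus both lower. The other eIF2 kinases, *Eif2ak1*, *Eif2ak2* and *Eif2ak4*, had 0.08, 0.31 and 0.52, and *Atf4*, whose translation rises when eIF2 is phosphorylated, had -0.20 (adjusted p = 0.319).

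None of the 15 genes of mTORC1 and eIF4E regulation passed the test, with a median of -0.21, and at an unadjusted p under 0.05 there were 0 higher and 4 lower, beside 12.3% and 10.7% of all genes. Those closest to the threshold were *Rps6kb1*, a kinase downstream of mTORC1, at -0.59 (adjusted p = 0.0728) and *Larp1* at -0.50 (0.0761). Of 7 poly(A)-binding proteins and partners 1 was higher and 0 were lower, beside 4.52% and 3.39% of all genes. At an unadjusted p under 0.05 there were also 1 and 0, beside 12.3% and 10.7%. The higher gene was *Pabpc4*, with 899, 1031, 1049 and 1102 against 597, 614, 543 and 651 normalized counts (log2 fold change 0.76, standard error 0.14, adjusted p = 0.00480 from limma). *Pabpc4* passed the test in all 8 fits that left out a library.

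Of 13 genes of hypusine and diphthamide synthesis, the modifications of eIF5A and eEF2, 1 was higher and 1 was lower. The shares over all genes were 4.52% and 3.39%. At an unadjusted p under 0.05 there were 2 higher and 2 lower, beside 12.3% and 10.7% of all genes. *Odc1* makes putrescine, from which spermidine, the polyamine used for hypusine, is made in a later step. It had 9113, 10862, 9796 and 8605 against 5768, 4605, 6462 and 4048 normalized counts (log2 fold change 0.90, adjusted p = 0.00205). *Dph5*, a methyltransferase of the diphthamide pathway of eEF2, had 375, 328, 389 and 290.4 against 688, 770.2, 525 and 685 (log2 fold change -0.94, adjusted p = 0.00605). Both held in all 8 fits that left out a library, but *Odc1* did not pass without the intensity trend (adjusted p = 0.0512). The later polyamine genes of the list did not pass. *Amd1* had -0.54 without overlap of the groups (adjusted p = 0.0762), *Srm* 0.87 (0.265) and *Sms* -0.14 (0.804). The enzymes that make hypusine on eIF5A did not pass either, with 0.21 for *Dhps* (0.714) and 0.01 for *Dohh* (0.988). The diphthamide genes other than *Dph5* did not pass and went both ways, from -0.51 for *Dph7* (0.491) to 0.86 for *Dnajc24* (0.171).

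Among 14 genes of release, recycling and alternative initiation 3 were higher and 0 were lower, beside 4.52% and 3.39% of all genes. At an unadjusted p under 0.05 there were 3 and 1, beside 12.3% and 10.7%. *Denr*, a factor of reinitiation, had 493 to 603 against 248 to 414 normalized counts (log2 fold change 0.77, adjusted p = 0.0331) and passed in 1 of 8 fits that left out a library, the one without TNFR2- replicate 4 (0.0166), with 0.0548 to 0.110 in the other fits. The call of *Denr* was also lost without the intensity trend (0.0878) and with median centring (0.0566). *Gspt1*, the release factor eRF3a, had 873 to 1105 against 610.5 to 785 (0.54, adjusted p = 0.0400) and passed in 2 of 8 fits, without TNFR2+ replicate 4 (0.0373) and without TNFR2- replicate 4 (0.0418). The *Gspt1* call was also lost with no filter on the mean (0.0510), without the intensity trend (0.111), with median centring (0.0832) and with the replicate number as a block (0.0665). *Gspt2*, its close relative, was much lower in level, with 45.1, 32.2, 15.9 and 18.7 against 3.496, 1.85, 0 and 0 normalized counts. It passed with all libraries (adjusted p = 0.0260) and in the 4 fits that left out a TNFR2- library, but not in those that left out a TNFR2+ library (0.0540 to 0.108).
A list of 22 genes held the cytosolic tRNA synthetases, which charge the tRNAs that eEF1A carries, and *Aimp1* and *Aimp2*, which charge no tRNA. Of the 22, 1 was higher (*Eprs*, 0.48, adjusted p = 0.0389) and 0 were lower, beside 4.52% and 3.39% of all genes. The median was 0.15. At an unadjusted p under 0.05 there were 4 higher, among them *Aimp1* (0.50), and 2 lower, beside 12.3% and 10.7% of all genes. *Eprs* passed in 2 of 8 fits, without TNFR2+ replicate 4 (0.0366) and without TNFR2- replicate 3 (0.0198), and did not pass without the intensity trend (0.151) or with median centring (0.40, 0.0704).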

How the data were processed

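Stranded total RNA libraries of 8 samples, 4 per group by the sample titles, were made by the authors, who trimmed reads with Trim Galore, estimated abundance with Salmon 1.3.0 on the GRCm38 transcriptome and normalized with DESeq2 1.28 in R 4.0. The deposited signal is the resulting normalized count per gene, not on a log scale. The step from transcripts to genes, any gene filter and the strand setting are not given in the sources used here. Whole reads could not be recovered, so no count model was fitted and depth is known only as sums of normalized counts. Library scaling, done by the authors, sets the zero of every fold change.

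Symbols came from GENCODE vM21 (GRCm38), which matched 20008 of 20172 identifiers. Values were taken as log2(normalized count + 1) for the 13990 genes averaging 10 or more, and tested two-sided with limma 3.58.1 in R 4.3.3 (intensity trend, Benjamini-Hochberg, threshold 0.05). Fold changes are on this scale, which understates those of low genes. Single factors had an exact permutation test over 70 relabellings. Levels per kilobase used the longest protein-coding transcript. Near-identical copies were sought with blastn 2.17.0 (95% identity over 50% of the transcript). The procedure was tested on simulated data. Python 3.11.15 and matplotlib 3.10.9 did the rest.

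Factors, complexes and lists were chosen with earlier results of these data known. The genes named are factors past the threshold, factors whose groups did not overlap, the highest and lowest of each complex, set pairs of relatives, the regulated factors *Eif2s1*, *Eif4e*, *Eif4ebp1*, *Eef2* and *Eef2k*, and list genes past the threshold. Others are named after their values were seen. Alternatives were pseudocounts of 0.5 and 5, no filter, a minimum mean of 50, protein-coding genes, other variance and scaling choices, a replicate block and each library left out. *Eef1a1* and *Eef1a2* could not be set side by side.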

Additional observations from a re-analysis of the deposited data

Results flagged for a closer look

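Of 118 groups of 4 libraries, 8 held a library whose distance from the nearest other library was a large part of the whole range (Dixon's test at 95%), where chance gives about 1 in 20 groups.

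Both lower factors were among them. *Eef2k* was at 491 normalized counts in TNFR2- replicate 3, against 107 to 138 in the other TNFR2- libraries. *Eif2b1* was at 204 in TNFR2- replicate 2, against 123 to 133.

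The others did not pass the test between groups. *Eif1a* was at 325 in TNFR2- replicate 3 (others 273 to 282), *Eif3i* at 933 in TNFR2- replicate 4 (587 to 617) and *Eif4a3* at 1101 in TNFR2- replicate 1 (747 to 791). In TNFR2+ libraries, *Eif2s3x* was at 1375 in replicate 2 (952 to 1021), *Eif3g* at 728 in replicate 1 (815 to 829) and *Eif4enif1* at 566 in replicate 3 (758 to 767).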

How the results depend on the processing

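The 5 factors past the test kept their direction under all 13 settings that kept every library and in all 8 fits that left one out. Without an intensity trend, 0 factors were higher and 0 lower (5 and 2 at an unadjusted p under 0.05), with 283 higher and 182 lower among all genes. Median centring left 1 higher factor. No filter, equal library sums, equal sums without mitochondrial and rRNA-like genes, and the replicate block each left 1 lower factor, *Eef2k*. The median log2 fold change of all genes was 0.12 with equal sums, that of the factors 0.10, so changes under equal sums are relative to that shift, and 309 genes were lower. With 1 library left out, 0 to 3 factors were higher and 0 to 2 lower, and 344 to 761 genes were higher and 278 to 540 lower. Same-numbered libraries did not deviate together (correlations of -0.039 to 0.001), so the numbers are not taken as pairs.

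Factors near 0 changed sign, and the cause was not tested. With equal library sums the log2 fold changes were 0.063 (*Eef1b2*), 0.016 (*Eef2*), 0.028 (*Eif3j2*), 0.095 (*Eif4ebp2*), 0.069 (*Eif4enif1*) and 0.076 (*Eif4g1*), all below the shift. With equal sums without mitochondrial and rRNA-like genes they were 0.021 (*Eef1b2*), 0.054 (*Eif4ebp2*), 0.028 (*Eif4enif1*) and 0.034 (*Eif4g1*). Quantile normalization gave 0.078 (*Eef1b2*), 0.15 (*Eef2*), -0.021 (*Eif4ebp1*), 0.059 (*Eif4g1*) and 0.021 (*Eif4g2*), and median centring gave -0.002 (*Eif4e2*) and -0.046 (*Eif4ebp1*). With 1 library left out they ranged from -0.184 to 0.092 (*Eef1b2*), -0.214 to 0.037 (*Eef2*), -0.007 to 0.323 (*Eif1a*), -0.312 to 0.09 (*Eif3j2*), -0.017 to 0.163 (*Eif4e2*), -0.467 to 0.754 (*Eif4ebp1*), -0.138 to 0.019 (*Eif4ebp2*), -0.136 to 0.047 (*Eif4enif1*) and -0.113 to 0.054 (*Eif4g1*). Low counts limit *Eif4ebp1*, *Eif5a2* and *Gspt2*.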
